A study of Mus musculus with 20 samples.

Results

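The GATA6-bound regions around 8 genes of the Nodal and BMP pathways, Nodal, Lefty1, Lefty2, Cer1, Bmp2, Bmp4, Id1 and Smad7, are described here by their chromatin accessibility. A region was taken when its midpoint lay within 100 kb of the start of one of these genes in the GENCODE vM21 annotation of mm10. Of the 42403 regions in the deposited table, 79 met this rule: 6 at Nodal, 16 at the neighbouring Lefty1 and Lefty2, 2 at Cer1, 7 at Bmp2, 6 at Bmp4, 25 at Id1 and 17 at Smad7. Accessibility was measured in 20 samples by ATAC-seq, which tags open chromatin with sequencing adapters through the Tn5 transposase. KH2 mouse ES cells (C57BL/6 x 129/Sv) with a doxycycline-inducible Gata6 transgene, grown on feeder cells, gave 17 samples: 3 each without doxycycline (d0) and after 8 h, 16 h, 1 day and 2 days with it, and 2 after 4 days. XEN cells (line X10, CD1 background), which are wild type, were not induced and were grown without LIF, gave 3 samples. All induced groups carry the same transgene and were made from picked clones, so that they stand for forced GATA6 expression in 1 genetic background, while XEN cells differ from them in strain, derivation and medium as well.

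Nodal is a TGF-beta family ligand that signals through activin receptors and SMAD2/3. Lefty1, Lefty2 and Cer1 encode secreted antagonists of Nodal, and Cer1 also binds BMPs. Bmp2 and Bmp4 are ligands that signal through SMAD1/5/8, Id1 is a direct target gene of that branch and encodes an inhibitor of bHLH factors, and Smad7 encodes an inhibitory SMAD that both branches induce. In the blastocyst Nodal and the Leftys are expressed in the epiblast, and Cer1 and Bmp2 are known from the endoderm that surrounds it. GATA6 is the factor that specifies this primitive endoderm, and XEN cells are its stem cell derivatives.

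The sequence of 200 bases around the GATA6 summit is shown for 6 regions on which the results below turn, on the forward strand of mm10, read from the RefSeq genome GRCm38. In the first 4, capitals mark the best GATA6 motif match given in the deposited table. They are the promoter-proximal Nodal and Cer1 regions, the Bmp4 region furthest below its d0 level at day 4 and the Id1 region of highest average signal. The Nodal window is chr10:61415985-61416184, the Cer1 window chr4:82886189-82886388, the Bmp4 window chr14:46412570-46412769 and the Id1 window chr2:152739945-152740144.
Nodal, 1.7 kb upstream: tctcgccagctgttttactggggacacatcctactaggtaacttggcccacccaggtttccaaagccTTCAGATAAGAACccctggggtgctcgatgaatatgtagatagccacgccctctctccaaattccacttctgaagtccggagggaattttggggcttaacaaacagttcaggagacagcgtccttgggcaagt
Cer1, 1.1 kb upstream: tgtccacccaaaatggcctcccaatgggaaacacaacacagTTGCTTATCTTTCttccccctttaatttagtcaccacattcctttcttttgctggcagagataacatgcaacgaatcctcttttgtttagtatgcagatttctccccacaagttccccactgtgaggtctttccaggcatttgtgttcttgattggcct
Bmp4, 22.0 kb upstream: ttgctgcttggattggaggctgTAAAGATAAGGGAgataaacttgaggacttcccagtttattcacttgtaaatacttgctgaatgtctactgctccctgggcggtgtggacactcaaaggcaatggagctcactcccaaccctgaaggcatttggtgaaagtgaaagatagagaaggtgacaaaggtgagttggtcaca
Id1, 3.5 kb downstream: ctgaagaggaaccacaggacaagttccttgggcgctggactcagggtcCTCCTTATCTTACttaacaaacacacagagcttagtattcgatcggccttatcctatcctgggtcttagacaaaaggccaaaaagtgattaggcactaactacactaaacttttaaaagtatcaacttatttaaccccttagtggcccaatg

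The other two are the regions nearest to the Lefty genes. Capitals there mark the best OCT-SOX composite motif match, a choice made after the values were seen. The Lefty1 window is chr1:180933847-180934046 and the Lefty2 window chr1:180888781-180888980.
Lefty1, 0.8 kb upstream: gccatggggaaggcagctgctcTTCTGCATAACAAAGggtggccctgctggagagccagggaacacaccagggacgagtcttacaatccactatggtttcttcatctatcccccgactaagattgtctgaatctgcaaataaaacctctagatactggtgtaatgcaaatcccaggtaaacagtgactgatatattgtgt
Lefty2, 4.4 kb upstream: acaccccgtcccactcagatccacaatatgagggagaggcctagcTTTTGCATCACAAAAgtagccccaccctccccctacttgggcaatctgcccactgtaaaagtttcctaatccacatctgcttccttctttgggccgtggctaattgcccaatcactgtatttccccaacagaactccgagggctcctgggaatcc

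The OCT-SOX match at Lefty1 scored 18.52 and lay 71 bp from the summit, and 0.198% of all 42403 regions had a best match of that score or more. At Lefty2 the match scored 16.68 at 48 bp from the summit, a score met by 0.799% of regions. The best GATA6 match lay 571 bp from the summit at Lefty1 and 736 bp at Lefty2, outside both windows. The letters GATAA, searched on both strands, occur in neither Lefty window, while they occur in 75.5% of all windows of this length and in 58 of the 79 member windows (73.4%). At Nodal the GATA6 match scored 14.04 at 27 bp from the summit, at Cer1 12.4 at 53 bp. A match describes the letters only.

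The ATAC values are the authors' average per group in RPM, reads scaled to library size, without division by region width, so that levels are compared between groups and not between regions. The 7 averages of a region are given below in the order d0, 8 h, 16 h, day 1, day 2, day 4, XEN cells. Single libraries could be read out of these averages, 2 each for day 4 and XEN cells, 3 for each other induced group and none for d0. The XEN average thus holds 2 libraries although 3 samples are labelled, and which of them it leaves out is not stated. These libraries held 181 to 288 M reads, apart from XEN library 2 with 43.3 M, whose region values rest on few reads. All 24 regions of the Nodal, Lefty and Cer1 loci were among the 24727 regions with reads of all 16 libraries. None of the 55 regions at Bmp2, Bmp4, Id1 and Smad7 was, but 40 of them had a single solution in the 8 h, day 4 and XEN libraries. The libraries of the early time points differ in their general level, the median region of 8 h library 3 being 0.51 lower on the log2 scale than that of library 1. Near genes that mark the cell types, 90 of 121 regions of primitive endoderm genes were more than 2-fold higher at day 4 than at d0 and 1 was lower, the 77 regions of pluripotency genes divided into 16 higher and 15 lower, and the 24 regions of feeder fibroblast genes into 3 higher and 1 lower.

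The members were most often at their maximum at day 2. Day 2 was the highest of the 7 groups at 43 regions (54.4%, against 39.4% of all regions), and at no region was it d0. Changes were taken as differences of log2(RPM + 0.03), a scale that understates the change of weak regions. Taking a 2-fold change against d0, with no replicate check, 0 regions passed in either 8 h or 16 h cells, and 3 were higher at day 1 (all regions, 4.55% higher). At day 2 there were 37 higher and 2 lower (all regions, 36.8% and 1.41%), and at day 4 29 higher and 6 lower (31.0% and 7.27%). XEN cells had 15 regions higher and 7 lower than d0 (27.7% and 8.83%). In bulk samples, fewer cells with an open region and a less open region in each cell cannot be told apart.

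The whole column moved, and the split depends on it. The median region of the table exceeded d0 on the log2 scale by 0.03, 0.11, 0.31, 0.69 and 0.52 in the 5 induced groups in turn, and by 0.40 in XEN cells. With each column centred on its median, the members gave 0 regions at day 1, 15 higher and 10 lower at day 2 (all regions, 13.1% and 13.9%), 11 higher and 15 lower at day 4 (15.8% and 16.4%), and 5 higher and 20 lower in XEN cells (14.4% and 17.8%). With quantile normalisation there were 7 higher and 6 lower at day 2 (11.1% and 10.3%), 8 higher and 16 lower at day 4 (16.2% and 16.0%), and 9 higher and 19 lower in XEN cells (19.2% and 18.6%). In the averages as deposited, 44 of the 79 members changed by more than the median region at day 4 and 35 by less, while in XEN cells it was 31 and 48.

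**Figure D1:**
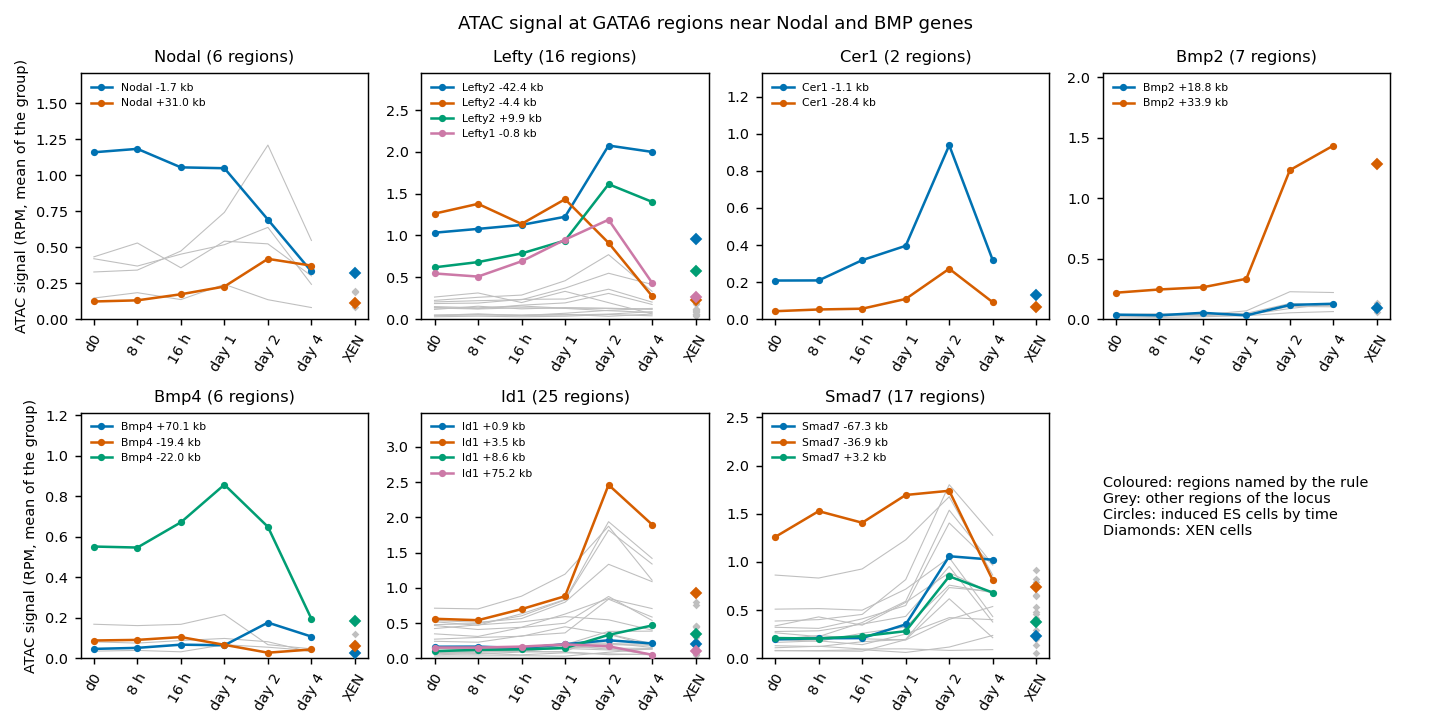
ATAC signal in RPM (vertical axis, authors' mean per group) at the 79 regions of the 7 loci, by group (horizontal axis), where lines join the induced ES cell groups and diamonds show XEN cells. Coloured lines are the regions picked for each gene by the rule given under data processing, with negative distances upstream of the gene start. Grey lines are the others, among them some regions described in the text. The Nodal region 1.7 kb upstream and the Lefty2 region 4.4 kb upstream end at 0.331 and 0.274 RPM at day 4, while the Bmp2 region 33.9 kb downstream reaches 1.44 RPM.

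The loci of the ligand Nodal and its antagonists did not move as one. Of their 24 regions, 3 were more than 2-fold higher and 3 lower at day 4 than at d0, and the median change was 0.22, which is 0.30 below that of all regions. Of the 55 regions at Bmp2, Bmp4, Id1 and Smad7, 26 were higher and 3 lower, with a median of 0.94, 0.43 above all regions. Among single loci, the median change at day 4 was -0.58 at Nodal, 0.22 at the Leftys, 0.64 at Cer1, 1.24 at Bmp2, -0.78 at Bmp4, 0.62 at Id1 and 1.31 at Smad7. The Lefty median turned negative when columns were centred (-0.34) or quantile-normalised (-0.31), and the Id1 median with quantile normalisation (-0.10). These medians describe the deposited averages.

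At Nodal, the region nearest the gene start lost signal by day 4, while a pair of intronic regions of the neighbouring gene Eif4ebp2 rose at day 2 in the deposited scaling. The upstream region (chr10:61415465-61417013, intergenic, 1.7 kb from the start) was bound by pluripotency factors at d0 and belongs to the Transient GATA6 class, whose binding is lost again. In the order given above, its 7 averages were 1.16, 1.18, 1.06, 1.05, 0.692, 0.331 and 0.319 RPM. The libraries gave 0.811, 1.73 and 1.01 RPM at 8 h, 0.568, 0.767 and 0.741 RPM at day 2, and 0.342 and 0.321 RPM at day 4. The 8 h libraries lay wide apart, but the lowest of them was more than the highest at day 4, and XEN cells, with 0.246 and 0.392 RPM, overlapped day 4. The change from 8 h to day 4 was -1.68 (SE 0.40, limma, adjusted p = 0.000154), and it was called under every alternative tried for it.

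The region 31.0 kb downstream of the Nodal start (chr10:61448784-61449140) was bound by pluripotency factors only after induction. Its libraries held 0.136, 0.174 and 0.0807 RPM at 8 h and 0.115, 0.36 and 0.204 RPM at day 1. Day 2 followed with 0.31, 0.486 and 0.46 RPM, and day 4 with 0.322 and 0.422 RPM. The day 2 and day 4 libraries all lay above those of 8 h, while XEN cells, at 0.0902 and 0.139 RPM, lay within the range of 8 h. It rose by 1.51 (SE 0.34, adjusted p = 5.2e-05) at day 2 and by 1.36 (SE 0.38, adjusted p = 0.00156) at day 4. Neither call held when libraries were centred on their medians, where the changes were 0.72 and 0.84, and the day 4 call was also lost without day 4 library 2 (1.18). The region 22.6 kb downstream (chr10:61440141-61441015) had its maximum at day 2, with 1.12, 1.23 and 1.28 RPM against 0.309, 0.409 and 0.304 RPM at 8 h. It rose by 1.75 (SE 0.35, adjusted p = 4.75e-06) and fell by 1.11 from day 2 to day 4 (SE 0.40, adjusted p = 0.0465), where it held 0.613 and 0.481 RPM. Centring ended both calls (0.97 and -0.85), and the fall was also lost without any 1 of the 5 libraries compared (-0.95 to -1.28).

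The summed signal of the 6 Nodal regions was 2.74 ± 0.843 RPM at 8 h (SD, n = 3 for the first 4 values), 2.64 ± 1.07 RPM at 16 h, 3.32 ± 1.15 RPM on day 1 and 3.62 ± 0.49 RPM on day 2. It was 1.87 ± 0.0248 RPM by day 4 and 1.02 ± 0.0905 RPM for XEN cells (SD, n = 2). The libraries of 8 h, 16 h, day 1 and day 2 overlapped. Those of day 4 lay above both XEN libraries and below every library of 8 h, day 1 and day 2, while the lowest 16 h library, at 1.66 RPM, lay below them.

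The Leftys lie 41.9 kb apart and share 15 of their 16 regions, so that they were treated as 1 locus. Their 2 regions called lower at day 4 than at 8 h were bound by pluripotency factors at d0. So were 2 regions called higher at day 2 than at 8 h, 9.9 kb downstream of Lefty2 and 0.8 kb upstream of Lefty1. The Lefty2 region 4.4 kb upstream (chr1:180887932-180889384), whose OCT-SOX match is shown above, had averages of 1.26, 1.38, 1.14, 1.43, 0.911, 0.274 and 0.222 RPM in that order. Its libraries held 1.11, 1.91 and 1.12 RPM at 8 h and 0.987, 2.26 and 1.05 RPM at day 1. On day 2 they held 1.15, 0.776 and 0.809 RPM, and on day 4 0.276 and 0.273 RPM. The lowest day 2 library was above both of day 4. It fell by 2.16 from 8 h to day 4 (SE 0.40, adjusted p = 8.15e-07), a call kept under every alternative tried for it, and by 1.61 from day 2 to day 4 (adjusted p = 0.00296). That second call was lost when either day 4 library was left out, at changes of -1.62 and -1.60.

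The Lefty1 region 10.2 kb upstream (chr1:180924594-180925070) also fell from 8 h to day 4, but its XEN libraries lay above those of day 4. Its libraries gave 0.23, 0.489 and 0.218 RPM at 8 h, 0.315, 0.138 and 0.136 RPM on day 2, 0.0703 and 0.0534 RPM on day 4, and 0.111 and 0.0923 RPM in XEN cells. The fall from 8 h to day 4 was 1.82 on the log2 scale (change -1.82, SE 0.38, adjusted p = 1.51e-05). The day 4 values rest on 13 and 9 reads.

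The Lefty1 region 0.8 kb upstream (chr1:180933580-180934803) instead rose and fell. Its 7 averages were 0.546, 0.508, 0.691, 0.95, 1.19, 0.434 and 0.27 RPM. The libraries gave 0.478, 0.705 and 0.342 RPM at 8 h, 0.891, 1.4 and 1.27 RPM at day 2 and 0.457 and 0.411 RPM at day 4. The day 2 libraries overlapped neither group. It rose by 1.21 at day 2 (SE 0.36, adjusted p = 0.00212) and fell by 1.37 from day 2 to day 4 (SE 0.40, adjusted p = 0.0123). The rise was no longer called when libraries were centred (0.43) or quantile-normalised (0.035), or without 8 h library 3 (0.97). The fall was lost with quantile normalisation (-0.91). It was also lost when either day 4 library, or library 2 or 3 of day 2, was left out (-1.24 to -1.44). Although it is bound by pluripotency factors at d0, this region is in the Early&Constant class, and its GATA6 binding at day 2 was lower upon Oct4 knockdown in the authors' classification.

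Of the remaining Lefty regions, 2 held much of the signal at day 4. The region 9.9 kb downstream of Lefty2 (chr1:180902482-180903582) had 0.53, 0.935 and 0.579 RPM at 8 h, 1.17, 1.85 and 1.82 RPM on day 2, 1.2 and 1.61 RPM on day 4, and 0.624 and 0.531 RPM in XEN cells. The region 42.4 kb upstream of Lefty2 (chr1:180850341-180851148) had 0.694, 1.62 and 0.926 RPM at 8 h, 1.74, 2.31 and 2.18 RPM on day 2, 1.81 and 2.19 RPM on day 4, and 1.11 and 0.808 RPM in XEN cells. At both, the libraries of day 2 and day 4 lay above all those of 8 h and of XEN cells. The first rose by 1.22 at day 2 and by 1.04 at day 4 (adjusted p = 0.00209 and 0.0247), and the second by 1.00 at day 2 (adjusted p = 0.0134), all calls that centring ended (0.44, 0.51 and 0.22). The day 4 call of the first was also lost without 8 h library 1 (0.89) or 3 (0.95) or either day 4 library (1.25 and 0.83), and the day 2 call of the second without 8 h library 1 (0.74) or 3 (0.94) or day 2 library 2 (0.92) or 3 (0.96).

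At Cer1 both regions opened by day 2 and closed again. The region 1.1 kb upstream (chr4:82885600-82886966) had averages of 0.208, 0.209, 0.318, 0.396, 0.939, 0.318 and 0.132 RPM in that order. Its libraries gave 0.164, 0.324 and 0.138 RPM at 8 h, 1.04, 0.929 and 0.852 RPM at day 2 and 0.412 and 0.224 RPM at day 4. Day 2 stood apart from every other group, and day 4 overlapped 8 h. It rose by 2.10 at day 2 (SE 0.35, adjusted p = 2.04e-08; 0.95 and not called with quantile normalisation) and fell by 1.53 from day 2 to day 4 (SE 0.39, adjusted p = 0.00389), the latter not called without day 4 library 2 (-1.13). The region 28.4 kb upstream, in an intron of Frem1 (chr4:82913293-82913755), rose by 1.88 (SE 0.33, adjusted p = 6.39e-08), from 0.0516, 0.0705 and 0.0332 RPM at 8 h to 0.201, 0.333 and 0.281 RPM at day 2, and fell by 1.30 by day 4 (adjusted p = 0.00905), to 0.0854 and 0.0962 RPM. This fall was not called with quantile normalisation (-0.93), or without day 2 library 2 or either day 4 library (-1.15 to -1.36).

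**Figure D2:**
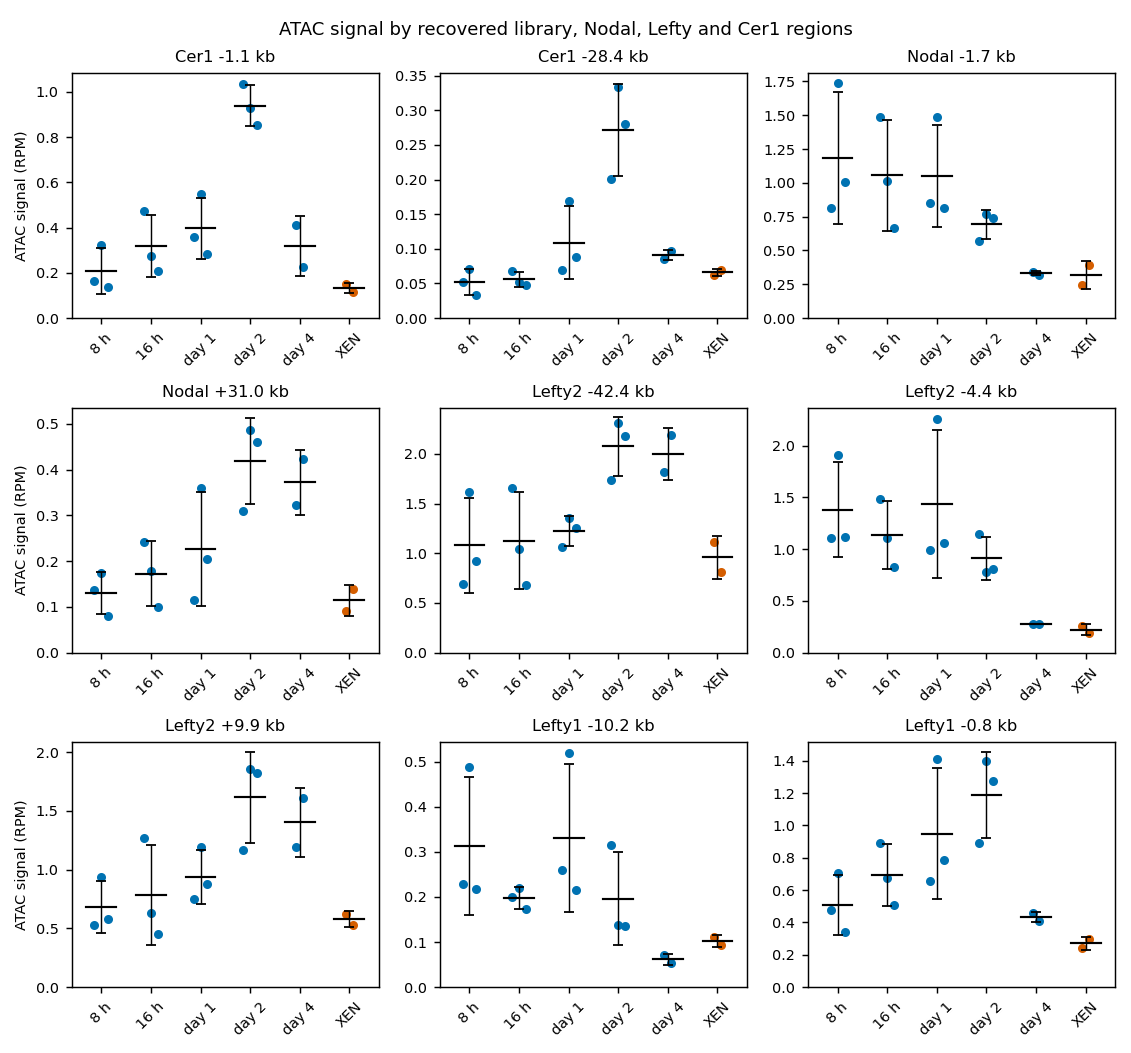
ATAC signal in RPM of every recovered library (points) at 9 regions of the Nodal, Lefty and Cer1 loci, by group from 8 h to XEN cells, with the group mean (line) and SD (bar) over 3 libraries, or 2 at day 4 and in XEN cells. At Nodal 1.7 kb upstream, Lefty2 4.4 kb upstream and Lefty1 10.2 kb upstream both day 4 libraries lie below every 8 h library, and at Cer1 1.1 kb upstream the 3 day 2 libraries, 0.852 to 1.04 RPM, lie above all others.

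Over the 24 regions of these loci, limma with Benjamini-Hochberg adjustment over the 24727 regions called a change at an adjusted p under 0.05 and a log2 change above 1 in size. Against 8 h it called 0 regions at day 1 (all tested regions, 5.43% higher), where 5 had an unadjusted p under 0.05, all higher. Without 8 h library 2, 3 regions were called higher at day 1 (all tested regions, 9.03%), and 1 without day 1 library 1 (7.2%). At day 2 it called 10 higher and 0 lower (36.8% and 1.15%), with 13 higher and 0 lower at an unadjusted p under 0.05. Those 10 are the 2 Cer1 regions, 2 of Nodal and 6 of the Leftys. At day 4 it called 2 higher and 3 lower (30.5% and 6.6%), and all 5 are described above. Without 8 h library 2 there were 5 higher and 3 lower (all tested regions, 35.2% and 4.44%). The 2 rises were smaller without day 4 library 2 (1.18 and 0.83). With centred libraries the split became 2 higher and 6 lower at day 2 (all tested regions, 14.0% and 13.6%) and 0 higher and 6 lower at day 4 (16.2% and 15.6%).

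From day 2 to day 4, 8 of the 24 regions fell and 0 rose (8.74% and 2.0% of tested regions), with 10 lower and 0 higher at an unadjusted p under 0.05. They comprise both Cer1 regions, the Nodal regions 35.7 kb upstream and 22.6 kb downstream, and 4 Lefty regions. This count rests on the 2 day 4 libraries. Without either of them few or no calls remained here, and calls over all tested regions became rarer too. Without day 2 libraries 2 and 3, 3 and 4 regions were called lower (all tested regions, 3.44% and 4.04%).

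At Bmp2, the ligand known from extraembryonic endoderm, every region was closed at d0 in the authors' classification and none was bound by pluripotency factors before induction. At day 2 and at day 4, 6 of its 7 regions were more than 2-fold higher than at d0, and in XEN cells 5. The strongest, 33.9 kb downstream (chr2:133585111-133587006, intergenic), had averages of 0.218, 0.245, 0.263, 0.333, 1.23, 1.44 and 1.29 RPM in that order, a ratio of 6.59 at day 4. Its XEN libraries held 1.23 and 1.34 RPM, against 0.225, 0.306 and 0.204 RPM at 8 h. GATA6 binding at this region is classed as increased upon Oct4 knockdown. Its day 4 reads had more than 1 solution, so it was not tested.

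The neighbouring region 35.9 kb downstream (chr2:133587768-133588416) had 0.0469, 0.0611 and 0.0237 RPM at 8 h, 0.236 and 0.203 RPM at day 4, and 0.0832 and 0.185 RPM in XEN cells. It rose by 1.79 (SE 0.37, adjusted p = 1.37e-05). The region nearest the Bmp2 start, 18.8 kb downstream (chr2:133570780-133571145), rose by 1.41 (SE 0.37, adjusted p = 0.000646), from 0.0375, 0.047 and 0.00949 RPM to 0.136 and 0.118 RPM. These are 7, 9 and 1 reads at 8 h and 26 and 21 reads at day 4, and the call was lost with centring (0.86). At all 6 Bmp2 regions that could be tested between 8 h and day 4 a rise was called, with changes of 1.07 to 1.79. With centred libraries 1 of the 6 was still called, the region 35.9 kb downstream (1.24), and with quantile normalisation 2 were. With a pseudocount of 0.15 RPM 0 of the 6 were called, and with 0.006 RPM all 6 were. The 8 h libraries held 0 to 12 reads at these regions.

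Bmp4, the other ligand, went the opposite way in the averages. All 6 regions are of the Transient class, none was more than 2-fold higher than at d0 apart from 1 at day 2, and 2 were lower at day 2 and 2 at day 4. The region 22.0 kb upstream (chr14:46412000-46413295) had averages of 0.552, 0.547, 0.671, 0.857, 0.649, 0.195 and 0.185 RPM in that order. Day 4 stood at 0.176 and 0.214 RPM in its libraries and XEN cells at 0.163 and 0.208 RPM, which overlap. Its 8 h reads could not be recovered, and the change from d0 to day 4, -1.37, has no test.

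The region 51.8 kb downstream of the Bmp4 start (chr14:46338303-46339345) was the one Bmp4 region called between 8 h and day 4, of 5 tested. It held 0.145, 0.235 and 0.104 RPM at 8 h and 0.0301 and 0.0641 RPM at day 4, a fall of 1.29 (change -1.29, SE 0.37, adjusted p = 0.00207) that was not called without day 4 library 1 (-0.97). The region 70.1 kb downstream (chr14:46320296-46320763), bound by pluripotency factors only after induction and with lower GATA6 binding upon Oct4 knockdown, was the 1 that was higher at day 2, with an average of 0.176 RPM against 0.0467 at d0. It held 0.0653 and 0.15 RPM at day 4, against 0.0347 and 0.0231 RPM in XEN cells. These XEN values rest on 9 and 0 reads beside the read added to each region. XEN cells were called lower (change -1.16, limma, adjusted p = 0.0258), a call lost without day 4 library 2 (-0.70).

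Around Id1, the BMP target, no change was called at the region in the gene itself. Of 18 regions tested at this locus between 8 h and day 4, 6 rose and 1 fell (all tested regions, 31.8% and 5.66%). With centred libraries 2 rose and 3 fell (16.6% and 14.8%). Quantile normalisation left 0 higher and 3 lower (14.1% and 13.8%). The region over a UTR of Id1 (chr2:152736782-152737572, midpoint 0.9 kb downstream) had 0.145, 0.193 and 0.161 RPM at 8 h, 0.231 and 0.192 RPM at day 4 and 0.218 and 0.185 RPM in XEN cells. These groups overlap, and the change from d0 to day 4, 0.31, became -0.24 with centred columns. The region 3.5 kb downstream (chr2:152739124-152740416), bound by pluripotency factors only after induction, had averages of 0.561, 0.542, 0.699, 0.882, 2.46, 1.9 and 0.93 RPM in that order. Its libraries held 1.73 and 2.06 RPM at day 4 and 1.07 and 0.785 RPM in XEN cells. XEN cells were lower by 1.02 (change -1.02, SE 0.21, limma, adjusted p = 0.000607). This difference was not called with quantile normalisation (-0.51), without day 4 library 2 (-0.89) or without XEN library 2 (-0.80).

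The Id1 region 8.6 kb downstream (chr2:152744462-152745183), where GATA6 binding is classed as increased upon Oct4 knockdown, was high in XEN cells too. It held 0.164, 0.0846 and 0.114 RPM at 8 h, 0.452 and 0.481 RPM at day 4, and 0.385 and 0.3 RPM in XEN cells. It rose by 1.75 from 8 h to day 4 (SE 0.37, adjusted p = 1.36e-05; 0.88 and not called with quantile normalisation). At 75.2 kb downstream, in an intron of Bcl2l1 (chr2:152811242-152811725), the signal was 0.0938, 0.277 and 0.0902 RPM at 8 h and 0.0703 and 0.0321 RPM at day 4. This change of -1.07 (SE 0.37, adjusted p = 0.0119) was not called without 8 h library 2 (-0.63), the high one, or without day 4 library 2 (-0.73). Of the 25 Id1 regions, 11 were past 2-fold higher and 0 lower at day 2 (44.0% higher, against 36.8% of all regions), and 9 higher and 1 lower at day 4 (36.0% higher, against 31.0%).

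Smad7, the inhibitor of both branches, and Bmp2 had the largest median changes of the 7 loci at day 4, 1.31 and 1.24, in an order that turned with a pseudocount of 0.006 RPM (1.43 and 1.77). At day 2 and at day 4, 11 of its 17 regions were more than 2-fold higher than at d0, and in XEN cells 7. The region nearest the start, 3.2 kb downstream (chr18:75370363-75371072, intron), had averages of 0.211, 0.206, 0.23, 0.282, 0.851, 0.682 and 0.378 RPM in that order. Its libraries gave 0.202, 0.259 and 0.157 RPM at 8 h, 0.643 and 0.721 RPM at day 4 and 0.364 and 0.392 RPM in XEN cells. The 3 groups did not overlap, and it rose by 1.62 from 8 h to day 4 (SE 0.37, adjusted p = 7.38e-05; 0.76 and not called with quantile normalisation). Of 11 tested regions 9 rose, by 1.05 to 2.25, all of them downstream of the start. The tested regions without a call lay 4.3 and 59.9 kb upstream. Those 22.7, 36.9 and 67.3 kb upstream could not be tested between 8 h and day 4. With centred libraries 5 of the 9 were still called, and with quantile normalisation 2.

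The Smad7 region of highest average signal and the one with the largest gain differed in their binding classes and their course. At 36.9 kb upstream (chr18:75329467-75331788), a region bound by pluripotency factors at d0, the averages were 1.26, 1.53, 1.41, 1.69, 1.74, 0.811 and 0.744 RPM in the same order. At 67.3 kb upstream (chr18:75300036-75300419), which has no GATA6 motif match in the table and is in the Late class, they were 0.196, 0.209, 0.21, 0.352, 1.06, 1.02 and 0.23 RPM. Neither could be tested between 8 h and day 4, since the 8 h reads of the first and the day 4 reads of the second were not resolved. Between day 4, at 0.799 and 0.823 RPM, and XEN cells, at 0.773 and 0.716 RPM, the first differed by -0.12 (SE 0.21, adjusted p = 0.709). The second stood 2.02 lower in XEN cells than at day 4 in the averages, with no test.

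**Figure D3:**
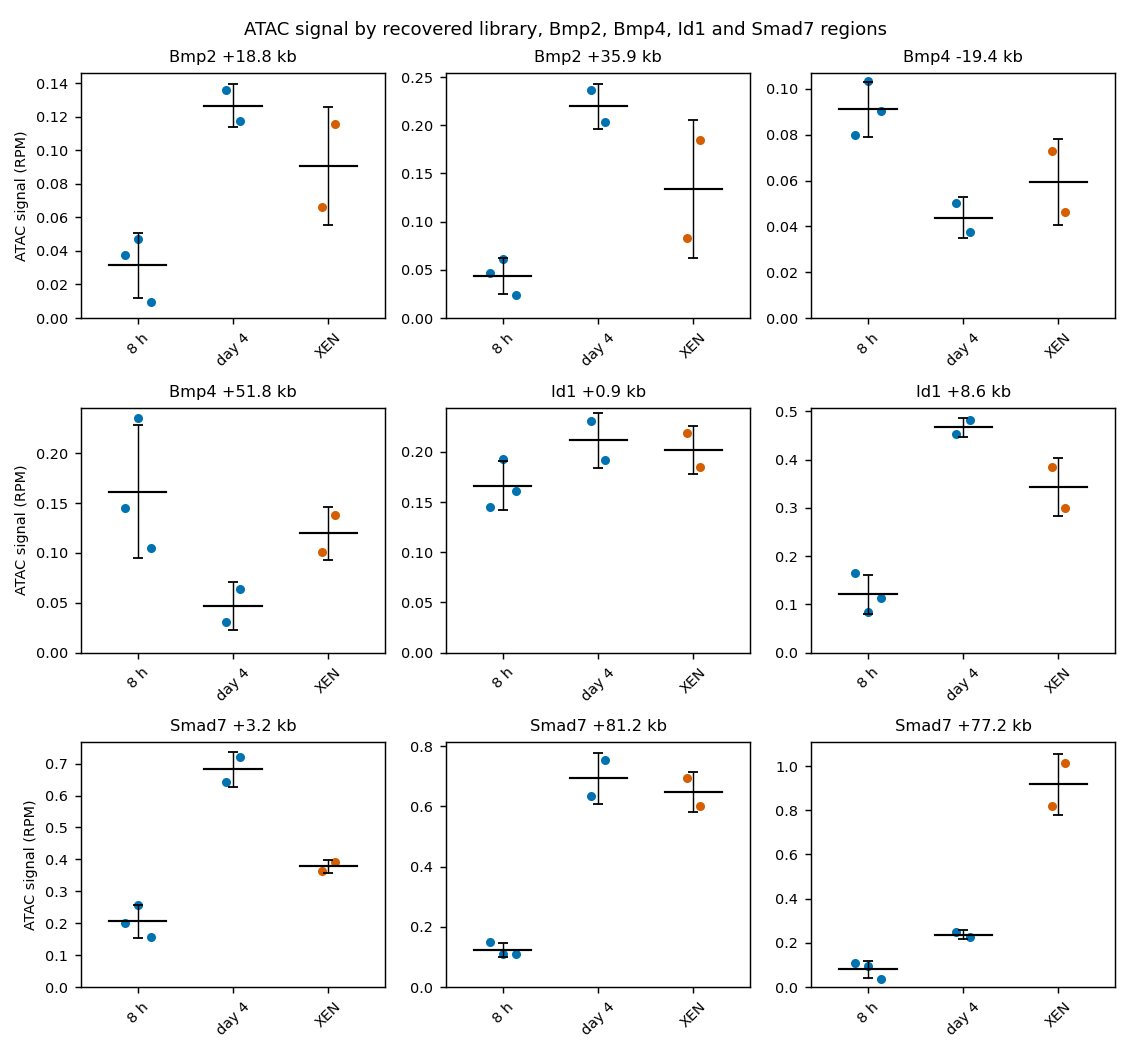
ATAC signal in RPM of the recovered libraries (points) at 9 regions of the Bmp2, Bmp4, Id1 and Smad7 loci at 8 h (3 libraries), day 4 (2) and in XEN cells (2), with the mean (line) and SD (bar). The Bmp2 and Smad7 regions shown have both day 4 libraries above all 8 h libraries, both Bmp4 regions have them below, and the Smad7 region 77.2 kb downstream is highest in XEN cells, at 0.818 and 1.02 RPM.

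With the regions whose rounded values had a single solution added, 64 of the 79 regions could be tested between 8 h and day 4, over 39693 regions. Limma called 23 higher and 5 lower (31.8% and 5.66% of tested regions). The calls were 6 higher of 6 at Bmp2, 0 higher and 1 lower of 5 at Bmp4, 6 higher and 1 lower of 18 at Id1, and 9 higher and 0 lower of 11 at Smad7, beside 2 higher and 3 lower of 24 at the Nodal, Lefty and Cer1 loci. Centring gave 8 higher and 12 lower (16.6% and 14.8% of tested regions). Fewer were called without day 4 library 2, both here and over all tested regions. The 15 regions that dropped out tend to have high values, because large averages have more than 1 solution.

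XEN cells had less signal than day 4 cells at most members. In the averages, 2 regions were more than 2-fold higher and 15 lower (6.83% and 12.9% of all regions), with a median of -0.38 against -0.09 for all regions, and centring gave 3 higher and 12 lower (8.04% and 11.3%). Among the 24 regions with reads of all 16 libraries, limma called 1 higher and 5 lower (5.56% and 12.0%). Among 74 regions with reads of the day 4 and XEN libraries it called 2 higher and 12 lower (6.57% and 13.1%), 9 of the 14 in the Nodal and Lefty loci and at Cer1. The first count fell to few or no calls whenever any of the 4 libraries was left out, when calls over all tested regions fell too. The second fell without either day 4 library and rose without XEN library 1, and calls over all tested regions did the same.

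Of those changes, the largest was at Smad7, 77.2 kb downstream (chr18:75444395-75445043, in an intron of Ctif). It held 0.108, 0.094 and 0.038 RPM at 8 h, 0.251 and 0.224 RPM at day 4 and 0.818 and 1.02 RPM in XEN cells. It was higher in XEN cells than at day 4 by 1.82 (SE 0.23, adjusted p = 1.67e-06). The other member called higher was the Lefty1 region 17.6 kb downstream (chr1:180952485-180952744, in an intron of Tmem63a), with 0.0352 and 0.0428 RPM at day 4 and 0.125 and 0.115 RPM in XEN cells, the latter 35 and 4 reads, a call lost without either day 4 library (1.04 and 1.2). Both are of the Late GATA6 class. The Nodal regions 22.6 and 31.0 kb downstream were lower in XEN cells, by 1.39 and 1.49 on the log2 scale (changes -1.39 and -1.49, adjusted p = 0.000118 and 0.000281 over the 41543 regions). In the limma fit over all 16 libraries the adjusted p was 0.0132 and 0.00527. There the first call was lost with quantile normalisation (-0.95) or without any 1 of the 4 libraries compared (-1.22 to -1.55). The second was lost there without day 4 library 2 (-1.3) or XEN library 1 (-1.24).

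The classes of the deposited table ordered the members much as they ordered all regions. The 16 members bound by pluripotency factors at d0 had a median change of -0.46 at day 4 (all such regions, -0.44). Among them 3 were past 2-fold higher and 5 lower (all such regions, 899 and 2535 of 8841). The 18 members bound by these factors only after induction had a median of 1.23 (all, 1.27) with 12 higher and 0 lower (all, 4229 and 17 of 7038). The 45 never bound had 0.59 (all, 0.55) with 14 higher and 1 lower (all, 8019 and 532 of 26524). Members with SOX17 binding, 47 of 79, had a median of 1.14 (all, 1.13), and the 32 without it -0.09 (all, 0.11). The 34 Early&Constant members had a median of 0.94 (all, 0.889), the 18 Late members 1.26 (all, 0.998) and the 27 Transient members -0.22 (all, -0.223). These classes overlap and the binding was measured in the same cells, so they are given as a description.

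GATA6 binding upon Oct4 knockdown was classed as unchanged at 72 members, decreased at 4 and increased at 3 (91.1%, 5.06% and 3.8%, against 85.2%, 6.25% and 8.57% of all regions). The decreased ones are the Cer1 region 1.1 kb upstream, the Lefty1 regions 0.8 and 17.8 kb upstream and the Bmp4 region 70.1 kb downstream, all of which had their maximum at day 2 except the second Lefty1 region, at day 4. The increased ones are the Bmp2 region 33.9 kb downstream and the Id1 regions 8.6 and 81.2 kb downstream. A GATA6 motif match within 100 bp of the summit was found at 49 of the 79 members (62.0%, all regions 62.7%) and at 6 of the 16 bound by pluripotency factors at d0 (37.5%, all such regions 45.5%).

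**Figure D4:**
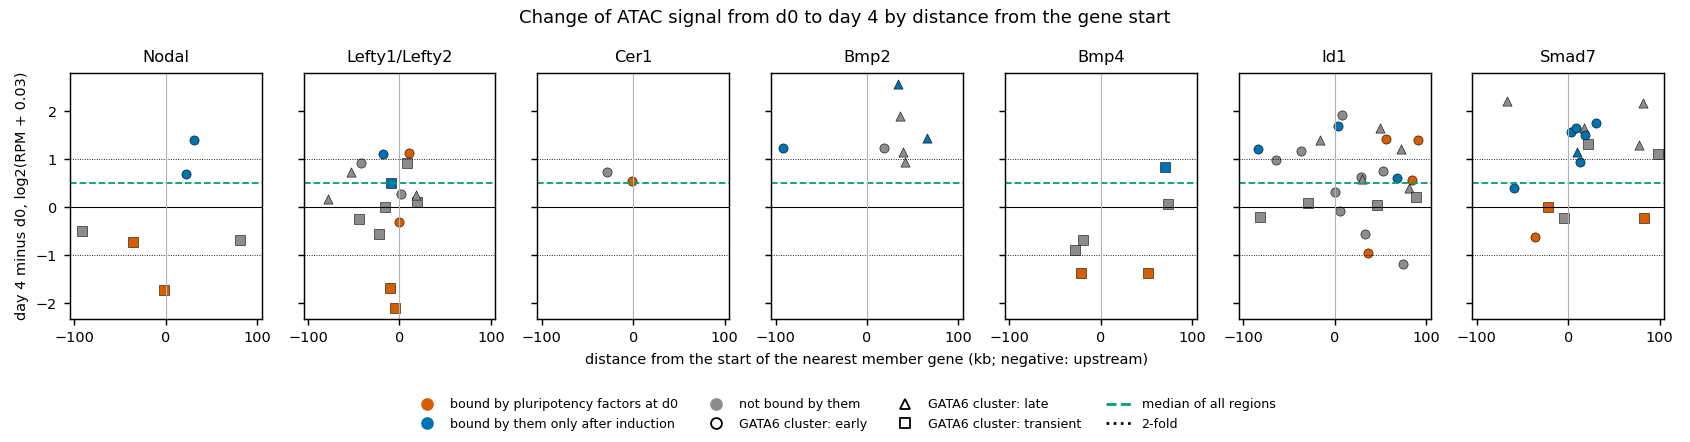
Change of the averaged ATAC signal from d0 to day 4 on the log2(RPM + 0.03) scale (vertical axis) by distance from the member gene's start in kb (horizontal axis) for the 79 regions, coloured by binding of pluripotency factors and shaped by GATA6 class. The dashed line is the median of all regions, 0.52, and dotted lines mark 2-fold. The lowest points lie close upstream of Lefty2, Nodal and Lefty1, at -2.08, -1.72 and -1.67.

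Distance alone does not assign a region to a gene. The member was the nearest protein-coding start for 40 of the 79 regions: all 7 at Bmp2, all 17 at Smad7, both at Cer1, 3 of 6 at Bmp4, 5 of 16 at the Leftys, 5 of 25 at Id1 and 1 of 6 at Nodal. Most Id1 regions lie in or next to H13, Cox4i2 and Bcl2l1. By position 43 regions were intergenic, 33 intronic, 2 in a UTR and 1 in an exon. The farthest region kept and the nearest left out were 91.9 and 101.7 kb away at Nodal, 91.8 and 102.0 kb at Id1 and 98.1 and 125.4 kb at Smad7. Those left out at the other loci were at least 120.1 kb away. Within 50 kb there were 52 regions.

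Other genes of both branches were counted by the same rule. Around 17 genes of the Nodal and activin side, such as the coreceptor gene Tdgf1, the receptor gene Acvr2b and the effector genes Smad2 and Foxh1, there were 97 regions, of which 28 were past 2-fold higher and 11 lower at day 4 than at d0 (28.9% and 11.3%, against 31.0% and 7.27% of all regions, with a median of 0.37). Around 18 of 19 genes of the BMP side, among them Bmpr1a, Smad1, Id2 and the antagonist gene Nog, 41 of 121 regions were higher and 5 lower (33.9% and 4.13%, with a median of 0.70). Limma called 22 higher and 8 lower of 85 on the Nodal and activin side between 8 h and day 4, and 39 higher and 4 lower of 117 on the BMP side, where 31.8% and 5.66% of all tested regions were called. Primitive endoderm genes had 72 higher and 0 lower of 99, pluripotency genes 15 higher and 10 lower of 67, and feeder genes 4 higher and 3 lower of 24. The difference between the lists was not tested.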

How the data were processed

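ATAC-seq libraries of the induced KH2 ES cells and of XEN cells were prepared from independent cultures, as stated in the study's methods. Groups follow the sample titles. For 4 of them the treatment labels give another exposure to doxycycline (16 h for 8 h, 24 h for 16 h, 48 h for day 1 and 72 h for day 2). The authors aligned reads to mm10, removed duplicates and took the short fragments falling in every GATA6 peak. The deposited ATAC values are in RPM, scaled to library size by the authors, who then averaged each group's libraries. Motif matches carry the authors' score as deposited, and the region classes were used as the authors gave them, with no unit. Of the 105 columns, 7 hold ATAC values, and 52 columns of per-sample values from other assays were not used.

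The design expected 1 column for each replicate, but the columns are averages. Since such an average adds up whole reads of each library, each at its own scale, the reads of single libraries were recovered where values kept at least 13 digits, to within 1e-07 reads, with library numbers in arbitrary order. The recovery and the fit were tested on simulated data. Regions of 7 digits were added, after the data were seen, where exactly 1 solution existed, which was right in 100.0% of cases checked. Limma 3.58.1 in R 4.3.3 was fitted to log2(RPM + 0.03) over all recovered libraries, with a trend. With the added regions of 7 digits, the fit for day 4 against 8 h used only the 8 h, day 4 and XEN libraries. The fit for XEN cells against day 4 then used only the day 4 and XEN libraries, so the spread came from fewer groups. P-values were adjusted by Benjamini-Hochberg over all tested regions. A read was added to each region of each library by the authors, as far as the low values tell. Python 3.11.15 with pandas 2.3.3 and pysam 0.24.0 was used for positions and sequences. Region coordinates are given as deposited.

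For each gene the rule named the region nearest its start, the one of highest mean signal and those with the largest increase and decrease from d0 to day 4. Other regions named in the text were chosen after their values were seen, because limma called them or because of their classes. The members and lists were chosen with earlier results of these data known. Alternatives were pseudocounts of 0.006 and 0.15 RPM, centring on medians, quantile normalisation, a filter at the median, a window of 50 kb, subtraction of each column's lowest value and each compared library left out. Intervals of single counts are not given, and the number of reads limits the precision of weak regions.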

Additional observations from a re-analysis of the deposited data

How the results depend on the processing

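No paired analysis was possible because the recovered libraries carry no replicate numbers that tie them to samples. Of 112 recomputed counts, 74 stayed within 1.5 times the reported count and 38 did not. Of 337 recomputed changes of named regions with a test, 265 kept their direction and side of the threshold, 60 lost the call, 7 gained one and 5 reversed. Of 135 untested changes, 46 moved by less than 1 SD, 82 by more, and 7 reversed. The cause was not tested for any of them. The number of libraries limits every test, and the day 4 and XEN groups have 2 libraries each, of 3 XEN samples labelled.

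With a pseudocount of 0.006 RPM, 7 members were past 2-fold at day 1 against d0, and with 0.15 RPM the counts were 0 on day 1, 17 on day 4, 8 for XEN cells against d0 and 6 for XEN cells against day 4. Centring gave 0 at day 1 and 25 at day 2, and quantile normalisation 0 and 13. Subtracting each column's lowest value gave 5 at day 1. Within 50 kb there were 25 on day 2, 23 on day 4 and 9 for XEN cells against day 4. For the calls by limma, a filter at the median region gave 1 at day 1 against 8 h. A pseudocount of 0.15 RPM gave 3 at day 4 against 8 h, 4 at day 4 against day 2 and 2 in XEN cells against day 4, and with the added regions 10 and 3 for day 4 against 8 h and XEN cells against day 4. Day 4 against day 2 gave 5 with centring and 2 with quantile normalisation, and the added regions gave 16 and 6 with quantile normalisation for day 4 against 8 h and XEN cells against day 4.

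Leaving out each library in turn gave 0 to 3 calls at day 1, 7 to 11 at day 2 and 3 to 8 at day 4 against 8 h, 0 to 6 at day 4 against day 2 and 0 to 1 in XEN cells against day 4. With the added regions it gave 17 to 28 for day 4 against 8 h and 6 to 19 for XEN cells against day 4. Where an arm was left with 1 library, its spread was taken from the other groups.

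The median change from d0 to day 4 reversed at the Leftys with centring (-0.34) and quantile normalisation (-0.31), and at Id1 with quantile normalisation (-0.095). The change of the Cer1 region 1.1 kb upstream from d0 to day 4 reversed with the same settings (-0.009 and -0.11), as did that of the Id1 region 0.9 kb downstream (-0.24 and -0.32). Against 8 h at day 4, the Cer1 region gave -0.087 with quantile normalisation, the Id1 region -0.24 with centring and -0.42 with quantile normalisation, and the Lefty1 region 0.8 kb upstream -0.398 to 0.094 with single libraries left out, the highest without 8 h library 2. The Lefty2 region 42.4 kb upstream gave -0.13 at day 2 with quantile normalisation.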
